A study of Mus musculus with 6 samples.

Results

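The Wnt pathway genes described here are 49 named mouse genes, all of which were found in the GENCODE M1 annotation among 22359 protein-coding genes. The rule lists them by name. They comprise 19 Wnt ligands, 13 receptors (the 10 Frizzleds with Lrp5, Lrp6 and Lgr5), 5 secreted inhibitors, 8 genes of the destruction complex and its regulators, and 4 nuclear factors. Open chromatin at these genes was read from ATAC-seq, where the enzyme Tn5 cuts accessible DNA, in J1 embryonic stem cells (ESCs) and in 2 kinds of expanded potential stem cells (EPSCs), D-EPSCs and L-EPSCs, named for the laboratories that described their media. J1 is a single line of the 129SV strain, so the 3 states share 1 genetic background.

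All 3 media held LIF at 1000 units/mL and CHIR99021 at 3 µM, an inhibitor of the kinase GSK3 that activates Wnt signalling. A GSK3 inhibitor therefore did not separate the states. ESCs were kept in serum-based medium, on mouse embryonic fibroblast feeders or gelatin, with the MEK inhibitor PD0325901 at 1 µM. D-EPSC medium, based on N2B27, had no PD0325901 and held dimethindene maleate and minocycline hydrochloride at 2 µM each. L-EPSC medium, based on serum replacement, held PD0325901 at 1 µM, A-419259 at 0.3 µM, JNK inhibitor VIII at 4 µM, SB203580 at 10 µM and XAV939 at 5 µM, and only this medium held XAV939, a tankyrase inhibitor that stabilises Axin. Per the study's methods, both EPSCs were grown without feeders for several passages before the assay. The media differed in many components, whose effects cannot be told apart. Each state had 2 technical replicates, which were read here from 1 peak list without a score. The files used here give no value per replicate, so no test between states was made, and the statements below describe 3 lists.

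In the absence of a Wnt ligand, a destruction complex of Axin, APC, GSK3 and casein kinase marks β-catenin for degradation. Binding of a ligand to a Frizzled receptor with LRP5 or LRP6 blocks that complex, and the β-catenin that accumulates joins the TCF/LEF factors on DNA and activates genes such as Axin2, a feedback inhibitor. In mouse ESCs this pathway favours self-renewal, mainly by relieving repression by Tcf7l1, and in the embryo it drives formation of the primitive streak.

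A member was said to have a start peak when a peak overlapped, by at least 1 bp, the 1000 bp on either side of a start of one of its protein-coding transcripts. Of the 49 members, 32 had a start peak in ESCs (65.3%, 95% Wilson interval 51.3 to 77.1), while 46 had one in D-EPSCs (93.9%, 83.5 to 97.9) and 40 in L-EPSCs (81.6%, 68.6 to 90). The intervals treat genes as draws, cover counting error only and do not cover the spread between libraries. Over all protein-coding genes the shares were 51.5%, 63.4% and 60.8%, so the share of Wnt genes was higher in every list, and in ESCs its interval held the background. The lists differ in length, with 28965 peaks in ESCs and 50225 and 46601 in D- and L-EPSCs, and the read depth behind them is unknown. A missing peak means that no region was called there, not that the chromatin was closed.

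The start peaks of 29 members were found in all 3 lists, a share of 59.2% against 50.4% of all coding genes. A further 11 members, 22.4% (13 to 35.9), had a start peak in both EPSC lists but not in ESCs, against 9.16% of all coding genes. These were the ligands Wnt2, Wnt2b, Wnt3, Wnt3a, Wnt4 and Wnt9a, the co-receptor Lrp5, the inhibitors Dkk2 and Sfrp2, and the nuclear factors Lef1 and Tcf7. Another 4 ligands (Wnt1, Wnt5a, Wnt6 and Wnt7a) had one in D-EPSCs alone, 8.16% against 3.33%. In the opposite direction only Wnt7b had a start peak in ESCs and in neither EPSC list, 2.04% against 0.295%. Wnt10b and Dkk3 shared theirs between ESCs and D-EPSCs, 4.08% against 0.528%. No member had a start peak in L-EPSCs alone, where the interval reaches 7.27% and the background is 0.93%, or in ESCs and L-EPSCs alone, where the background is 0.273%. Wnt8b and Wnt10a had none in any list, 4.08% against 35.1%.

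The difference between ESCs and EPSCs depended on narrow peaks in part. The EPSC lists were cut to their widest 28965 peaks, as many as in ESCs. Then 5 of the 49 members, in place of 11, kept a start peak in both EPSC lists while lacking one in ESCs. The share of all coding genes fell as well, from 9.16% to 6.07%. The 5 were Wnt4, Wnt9a, Lef1, Tcf7 and Sfrp2. Each of the other 6 lost its start peak in 1 EPSC list and kept it in the other. Wnt2, Lrp5 and Dkk2 had an L-EPSC peak under the 279 bp reached there, and Wnt2b, Wnt3 and Wnt3a a D-EPSC peak under 309 bp. The ESC list, not shortened, kept peaks down to 128 bp. When each list was cut to its widest 50%, the count was 10 of the 49 members against a background of 13.9%, but with other genes. No interval was taken in either setting, so how far the members stood above all coding genes there was not tested. Wnt4, Wnt9a, Tcf7 and Sfrp2 were the 4 shared with the 11, and Wnt5b, Fzd6, Lrp6, Dkk1, Apc and Ctnnb1 joined them.

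**Figure D1:**
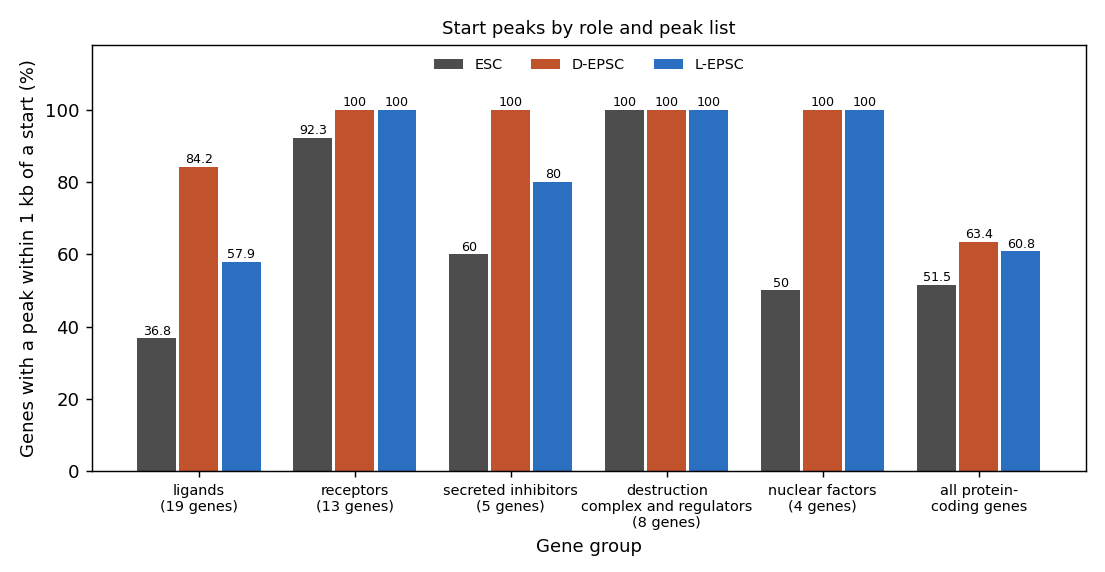
Bars give the share of genes (%) with a peak within 1 kb of a coding start, by role (number of genes in brackets) and for all protein-coding genes, in ESC (grey), D-EPSC (orange) and L-EPSC (blue); there are no error bars because each state has a single list. The ligands stand at 36.8% in ESCs, compared with 84.2% in D-EPSCs and 57.9% in L-EPSCs, while the receptors stand at 92.3% or more and the destruction complex group is complete in every list.

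Sequence under the start peaks is shown first for the sites that TCF/LEF factors can read, because Axin2, Tcf7, Dkk2, Lrp6 and Tcf7l2 each had such letters in a start peak and because peak extent there differed between states. The motif was searched as CTTTGAA or CTTTGAT on both strands. It is printed in capitals, 5′ to 3′ on the strand of the gene, with positions on mm9.
Axin2, 81 bp after its start, exonic, in the peaks of all 3 lists, chr11:108781731-108781757: gccggctgcgCTTTGATaaggtcctgg
Axin2, 886 and 906 bp after its start, intronic, in the D-EPSC peak alone, chr11:108782545-108782573: gCTTTGATgtgcggggcggcgCTTTGAAg
Tcf7, 192 bp before its start, in the peaks of both EPSC lists, minus strand, chr11:52096823-52096923: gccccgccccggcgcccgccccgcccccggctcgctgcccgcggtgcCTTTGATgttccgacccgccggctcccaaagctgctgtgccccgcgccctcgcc
Dkk2, 481 bp after its start, exonic, in the D-EPSC peak alone, chr3:131748724-131748750: ggcgtctggcCTTTGATtgcttccagg
Lrp6, 439 bp before its start, in the D-EPSC peak alone, minus strand, chr6:134517320-134517420: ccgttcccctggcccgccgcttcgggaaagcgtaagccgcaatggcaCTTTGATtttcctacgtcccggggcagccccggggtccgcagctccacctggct
Tcf7l2, 89 bp after its start, exonic, in the D-EPSC peak alone, chr19:55816376-55816402: tcagcgccgcCTTTGAActgaaaagct
A match of letters describes the sequence and is no evidence of binding. The printed stretches are a selection, as start peaks of Wnt5b, Wnt8a, Dkk3, Lgr5 and other members also held such letters. At Wnt8a the match at -104 bp lay in the ESC and D-EPSC peaks. Body matches in the ESC peak alone stood 50925 bp into Tcf7l2, 35269 bp into Tcf7l1 and 79289 bp into Gsk3b. Body matches in the peak of a single EPSC list were found as well, as at Fzd5, Lrp5, Lrp6 and Dkk3. The distances are from the first (most 5′) coding start of each gene. All 3 lists had a start peak at Axin2, Lrp6 and Tcf7l2, so at those genes, apart from the first Axin2 match, the states differed in whether the peak reached the letters.

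The CpG content of these starts is shown for Wnt3 and Lef1, as a ligand and a nuclear factor with a D-EPSC peak over the sequence and no ESC peak. This pair was chosen after the values were seen. Each CpG is in capitals in the 100 bases before the first coding start, both on the plus strand.
Wnt3, chr11:103635364-103635463, under peaks of both EPSC lists: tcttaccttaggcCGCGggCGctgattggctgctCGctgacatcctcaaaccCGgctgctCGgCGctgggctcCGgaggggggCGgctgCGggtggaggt
Lef1, chr3:130813289-130813388, under the D-EPSC peak alone: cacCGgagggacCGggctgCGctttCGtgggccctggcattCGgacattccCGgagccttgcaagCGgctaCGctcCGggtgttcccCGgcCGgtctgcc
The Wnt3 stretch holds 10 CpGs and 70% G and C, and the Lef1 stretch 11 CpGs and 71%.

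Starts of this kind were frequent among the Wnt genes. A start was called CpG-rich when the 1000 bp around the first coding start had at least 50% G and C and a CpG observed/expected ratio of at least 0.6, which is the number of CpGs over the number that the base content gives. This held for 39 of the 49 members (79.6%) and for 44.6% of all coding genes. CpG-rich starts are open in most cell types, so the members were also set against the 9970 coding genes with such a start. Of the 39 CpG-rich members, 26 had a start peak in ESCs (66.7%, interval 51 to 79.4), against 84.7% of all CpG-rich genes. In D-EPSCs 38 had one (97.4% against 97.8%), and in L-EPSCs 34 (87.2% against 96%). A start peak in both EPSC lists and not in ESCs was found for 10 of them, 25.6% (14.6 to 41.1) against 11.3%. Set against genes of like base content, the Wnt genes were thus below the background in ESCs and L-EPSCs and near it in D-EPSCs, whereas among all coding genes they lay above it in every list. The ligands carried most of this, since only 5 of the 14 CpG-rich ligands had a start peak in ESCs, against 13 in D-EPSCs and 9 in L-EPSCs.

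**Figure D2:**
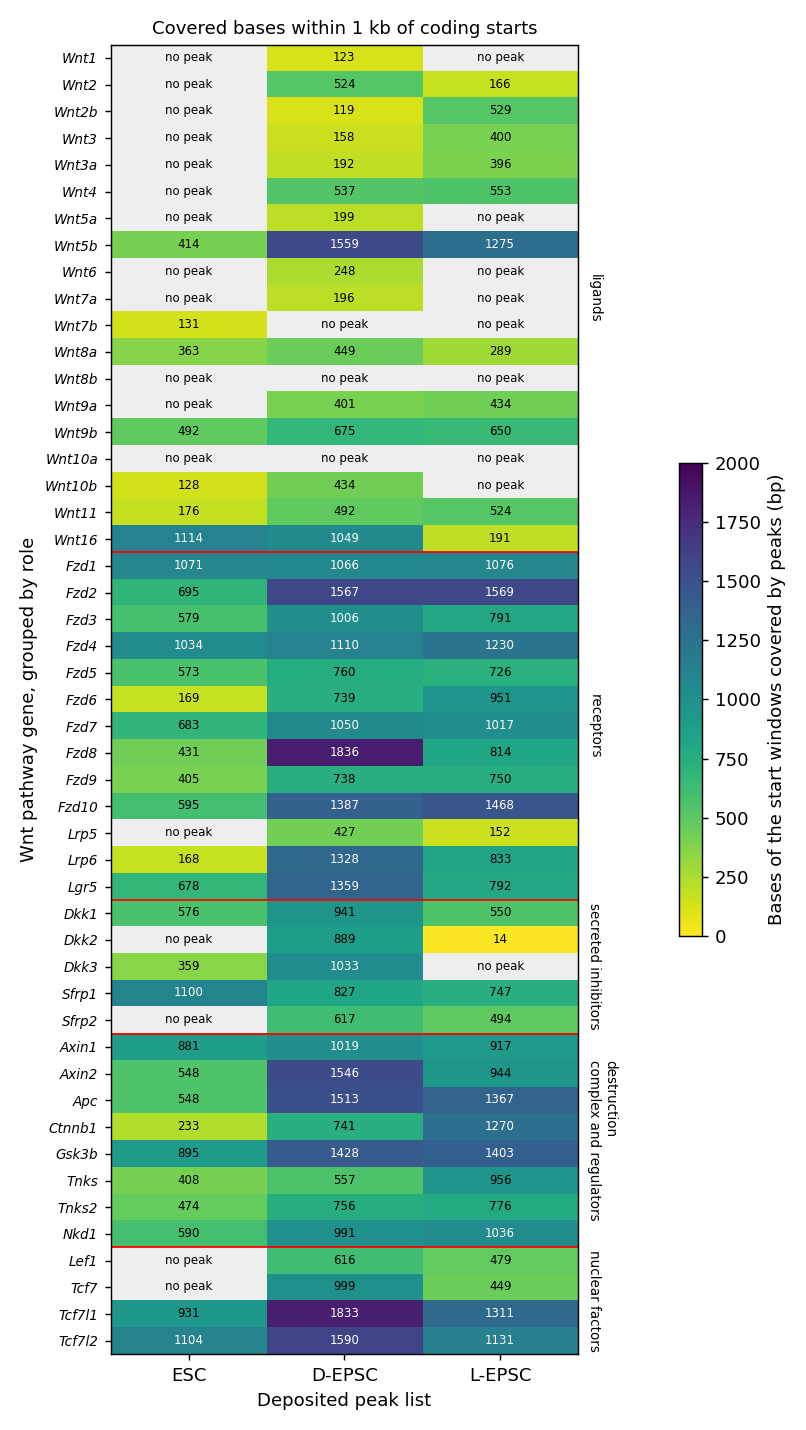
Each cell gives the bases (bp) of a member's start windows, 1 kb on either side of its coding starts, that were covered by peaks of the ESC, D-EPSC or L-EPSC list; rows are the 49 members grouped by role, darker colour means more covered bases, and grey cells had no start peak. The ligand block is mostly grey in the ESC column, and the receptor block has a single grey cell, Lrp5 in ESCs.

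The ligands are secreted, lipid-modified proteins that start the signal. Of the 19 ligand genes, 7 had a start peak in ESCs against 16 in D-EPSCs and 11 in L-EPSCs. These shares of 36.8%, 84.2% and 57.9% stand beside 51.5%, 63.4% and 60.8% of all coding genes, so the L-EPSC share was near the background. Where present these peaks were small, with a median of 363 covered bases of the start windows in ESCs and of 417.5 and 434 in D- and L-EPSCs. Receptors with a peak had medians of 587, 1066 and 833 bases.

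Wnt3, the ligand required for the primitive streak, had no start peak in ESCs, 158 covered bases in D-EPSCs and 400 in L-EPSCs, and both EPSC peaks lay over its start. At Wnt3a, which maintains axial stem cells later in gastrulation, the D-EPSC peak of 192 bp lay just inside the gene and the L-EPSC peak of 396 bp over the start and upstream of it. These Wnt3a peaks did not overlap but nearly met, as the L-EPSC peak ended 56 bp after the start and the D-EPSC peak began at 70 bp. Wnt2b had a D-EPSC peak of 119 bp with its midpoint at -887 bp, which is upstream of the start, and an L-EPSC peak of 529 bp at -298 bp. The shared call of Wnt2b thus joins separate sites.

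Wnt4, which acts in kidney and gonad development, had nearly the same start peak in both EPSC lists, of 537 and 553 bp in D- and L-EPSCs. Wnt9a had peaks of 401 and 434 bp over its start and a second pair in its intron, with midpoints 1122 and 1131 bp downstream. At Wnt2 the D-EPSC peak covered 524 bases and the L-EPSC peak 166. The EPSC peaks at Wnt4 and Wnt9a were thus alike in place and width, while those at Wnt2, Wnt2b, Wnt3 and Wnt3a were not. The nearest ESC peak lay 9961 bp from the start of Wnt3, 8249 bp from that of Wnt3a, 6225 bp for Wnt2b, 24425 bp for Wnt9a, 69268 bp for Wnt4 and 189663 bp for Wnt2.

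The 4 ligands with a start peak in D-EPSCs alone all had narrow ones. They covered 123 bases at Wnt1, a midbrain ligand, 199 at Wnt5a, which signals largely without β-catenin, 248 at Wnt6 and 196 at Wnt7a. Each lay under the 309 bp that the widest 28965 D-EPSC peaks reached. The nearest L-EPSC peaks were 3855, 2878, 1283 and 1727 bp from these starts.

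Wnt5b had start peaks in all 3 lists, but at different starts. The ESC list had peaks of 176 and 238 bp within 1000 bp of a coding start 94932 bp into the gene, with midpoints 95767 and 94999 bp downstream, and none at the first start. D-EPSCs had a 395 bp peak at the same place, overlapping the ESC peak of 238 bp, and L-EPSCs had none there. At the first start D-EPSCs had a peak of 1164 bp and L-EPSCs one of 1275 bp. When only the first coding start of each gene was used, a setting chosen after the data were seen, Wnt5b joined the members with peaks in both EPSC lists and not in ESCs, and Lef1 left them. The count remained 11 of 49, against 9.1% of all coding genes. Under that setting 28 members had a start peak in ESCs, with 43 in D-EPSCs and 37 in L-EPSCs, against 49%, 61% and 58.2% of all coding genes.

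Wnt16 was the ligand with the widest ESC start peak, at 1114 covered bases, followed by 1049 in D-EPSCs and 191 in L-EPSCs. In ESCs and D-EPSCs the peak ran over the start into the gene, and in L-EPSCs only the part upstream of the start was called. Wnt8a and Wnt9b had start peaks in every list, at 363, 449 and 289 bases for Wnt8a and 492, 675 and 650 for Wnt9b, in the order ESC, D-EPSC and L-EPSC. Wnt11 was covered for 176, 492 and 524 bases, and Wnt10b for 128 bases in ESCs and 434 in D-EPSCs, both at coding starts within the gene and not at their first start.

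The ESC start peak of Wnt7b rested on the edge of its window. The midpoint of this 1063 bp peak was at -1401 bp, 131 bases of it lay in the window, and the nearest EPSC peaks stood 1336 bp (D-EPSC) and 1241 bp (L-EPSC) from a start. With windows of 500 or 2500 bp, or with the midpoint of the peak required inside, 0 members were in ESCs and in neither EPSC list.

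Several ligands are neighbours in the genome. The starts of Wnt3a and Wnt9a lie 16.2 kb apart on chromosome 11 and point away from each other, and between them ESCs had 0 peaks, D-EPSCs 2 and L-EPSCs 3. The Wnt1 and Wnt10b starts are 11.7 kb apart on chromosome 15, with 0, 3 and 2 peaks between them in the same order. Between Wnt6 and Wnt10a, 19.6 kb apart on chromosome 1, there were 1, 3 and 3 peaks, and between Wnt9b and Wnt3, 24.3 kb apart on chromosome 11, 2, 2 and 4.

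**Figure D3:**
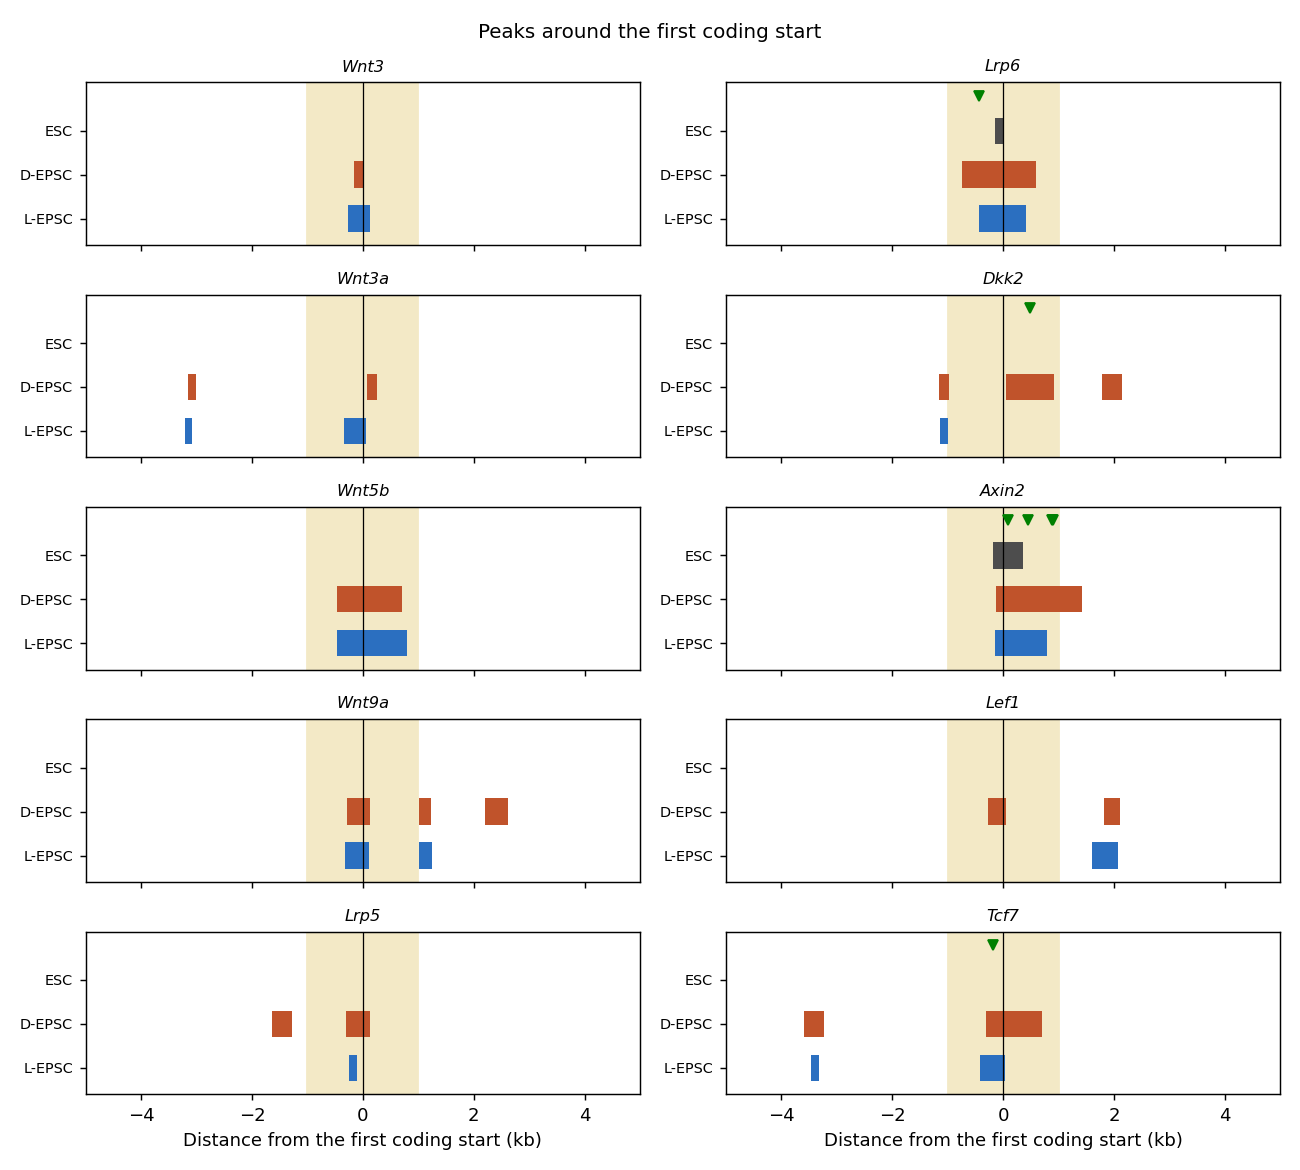
Peaks of the ESC (grey), D-EPSC (orange) and L-EPSC (blue) lists within 5 kb of the first coding start of 10 members, plotted by distance from that start (kb, transcription to the right); the shaded band is 1 kb on either side and green triangles mark TCF/LEF letters inside a member's peak, the marks at 886 and 906 bp in Axin2 falling on each other. ESC peaks are seen in 2 panels, Lrp6 and Axin2, and EPSC peaks in all 10, where the L-EPSC peak of Lef1 lies off the first start.

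Nearly all receptors had a start peak in every list. Frizzled proteins bind the ligand, Lrp5 and Lrp6 are their co-receptors, and Lgr5 binds R-spondins and marks stem cells of several tissues. The 10 Frizzled genes, Lrp6 and Lgr5 were called in all 3 lists, and Lrp5 in the EPSC lists only, with 427 covered bases in D-EPSCs and 152 in L-EPSCs, and no ESC peak closer than 13002 bp. Of the 13 receptor genes 12 have CpG-rich starts, and 11 of these had a start peak in ESCs and 12 in each EPSC list. That is close to the 84.7%, 97.8% and 96% of all CpG-rich genes.

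The states differed at these receptors in how much of the start was covered. Lrp6 had 168 covered bases in ESCs and 1328 and 833 in D- and L-EPSCs, folds of 7.9 and 4.96 over ESCs. Fzd6 had 169, 739 and 951 bases, folds of 4.37 and 5.63. Fzd8 had 431, 1836 and 814 bases, where D-EPSCs had a single peak over the start and L-EPSCs 2 separate ones beside it. At Fzd1, by contrast, the values were 1071, 1066 and 1076 bases, and at Fzd4 1034, 1110 and 1230, so the receptors ranged from the same extent in 3 lists to several times more in EPSCs.

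Secreted inhibitors bind the co-receptors (the Dickkopf proteins Dkk1 and Dkk2) or the ligands (Sfrp proteins). Dkk1, an early Wnt target itself, was covered for 576 bases in ESCs against 941 in D-EPSCs and 550 in L-EPSCs. The nearest ESC peak to the start of Dkk2 was 122392 bp away. The gene had 889 covered bases in D-EPSCs, mostly from a peak of 864 bp just after its start, which contained the motif shown above, and 14 bases in L-EPSCs, the edge of a 162 bp peak whose midpoint was at -1067 bp. The L-EPSC call of Dkk2 thus rests on 14 bases. Dkk3, a divergent member of the family, had 359 bases in ESCs, 1033 in D-EPSCs and no L-EPSC peak closer than 21040 bp. Sfrp1 was one of the few members covered most in ESCs, at 1100 bases against 827 and 747, while Sfrp2 had 617 bases in D-EPSCs and 494 in L-EPSCs, with the nearest ESC peak 1839 bp away.

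All 8 genes of the destruction complex and its regulators had a start peak in every list, as had 50.4% of all coding genes. CpG-rich starts were found in 7 of the 8, a class in which 84.7% (ESC) to 97.8% (D-EPSC) of all genes had a start peak, so the full count was little above that share. Axin1, a scaffold of the complex, differed least among the 8, with 881 bases in ESCs and 1019 and 917 in D- and L-EPSCs. Axin2, the inducible scaffold and a standard readout of the pathway, had 548, 1546 and 944 bases, folds of 2.82 and 1.72 over ESCs. The Axin2 peaks began at -189 bp (ESC), -132 bp (D-EPSC) and -146 bp (L-EPSC), so they differed mainly in how far they ran into the gene. As a result 1 of its 4 TCF/LEF matches, at 81 bp, lay in the ESC peak, a match at 444 bp was added in L-EPSCs, and in D-EPSCs all 4 were inside.

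Apc, the other scaffold, had 548, 1513 and 1367 covered bases at its coding starts. The Ctnnb1 gene, which encodes β-catenin, had 233 bases in ESCs against 741 in D-EPSCs and 1270 in L-EPSCs, folds of 3.18 and 5.45. Its peaks stood at coding starts inside the gene, with midpoints 4123, 4053 and 4454 bp from the first start, where no list had a peak. Gsk3b, which encodes the kinase that CHIR99021 inhibits, had 895, 1428 and 1403 bases, 1.6 and 1.57 times the ESC value.

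The tankyrases, which mark Axin for degradation, are the targets of XAV939, found only in L-EPSC medium. Tnks had 408 bases in ESCs and 557 and 956 in D- and L-EPSCs, and Tnks2 had 474, 756 and 776. Tnks was 1.72 times as covered in L-EPSCs as in D-EPSCs, which placed it among 5 members with at least 1.5 times, and Tnks2 was 1.03 times. Nkd1, a feedback inhibitor that binds Dishevelled, had 590, 991 and 1036 bases.

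The nuclear factors split into a pair called everywhere and a pair called in EPSCs. Lef1 had no ESC start peak, 616 covered bases in D-EPSCs and 479 in L-EPSCs. The D-EPSC bases came from a 330 bp peak at the first start and a 286 bp peak 1966 bp downstream, and the L-EPSC bases from a 479 bp peak 1839 bp downstream, near the other coding start. Tcf7, encoding TCF1, had no ESC start peak, a D-EPSC peak of 999 bp and an L-EPSC peak of 449 bp, both over the first start and over the TCF/LEF letters 192 bp before it. The nearest ESC peaks were 7896 bp from a start of Lef1 and 14330 bp from one of Tcf7.

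Tcf7l1, which encodes TCF3, the main repressor of the family in ESCs, had 931 covered bases in ESCs against 1833 in D-EPSCs and 1311 in L-EPSCs. Tcf7l2 had 1104, 1590 and 1131 bases over its 13 coding starts. Both genes thus had start peaks in every list, with more bases covered in D-EPSCs.

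Where a member had a start peak in both lists of a pair, the covered bases were divided. In D-EPSCs 21 of 31 members (67.7%) had at least 1.5 times as many covered start bases as in ESCs, against 41.9% of all coding genes, and 0 had the reverse, against 2.75%. The median fold was 1.74 over the members and 1.37 over all coding genes. In L-EPSCs 15 of 29 (51.7%) reached 1.5 times the ESC value, against 36.1%, and only Wnt16, at 0.171 times, fell that far in the opposite direction, 3.45% against 4.02%. The median fold was 1.57 against 1.29. With a fold of 2 the counts were 13 for D-EPSCs (41.9% against 23.3% of all coding genes) and 9 for L-EPSCs (31% against 19.2%). At 1.5 times the D-EPSC interval, 50.1 to 81.4, lay above its background, while the L-EPSC interval, 34.4 to 68.6, held its own.

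Between the EPSCs, 11 of 40 members (27.5%) had at least 1.5 times as many covered bases in D-EPSCs, against 16.1% of all coding genes, and 5 (12.5%) in L-EPSCs, against 6.23%. The 5 were Wnt2b (4.45 times), Wnt3 (2.53), Wnt3a (2.06), Tnks (1.72) and Ctnnb1 (1.71). At the other end stood Dkk2 (0.0157), Wnt16 (0.182), Wnt2 (0.317), Lrp5 (0.356) and Fzd8 (0.443). The median, 0.929, was close to that of all coding genes, 0.948.

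**Figure D4:**
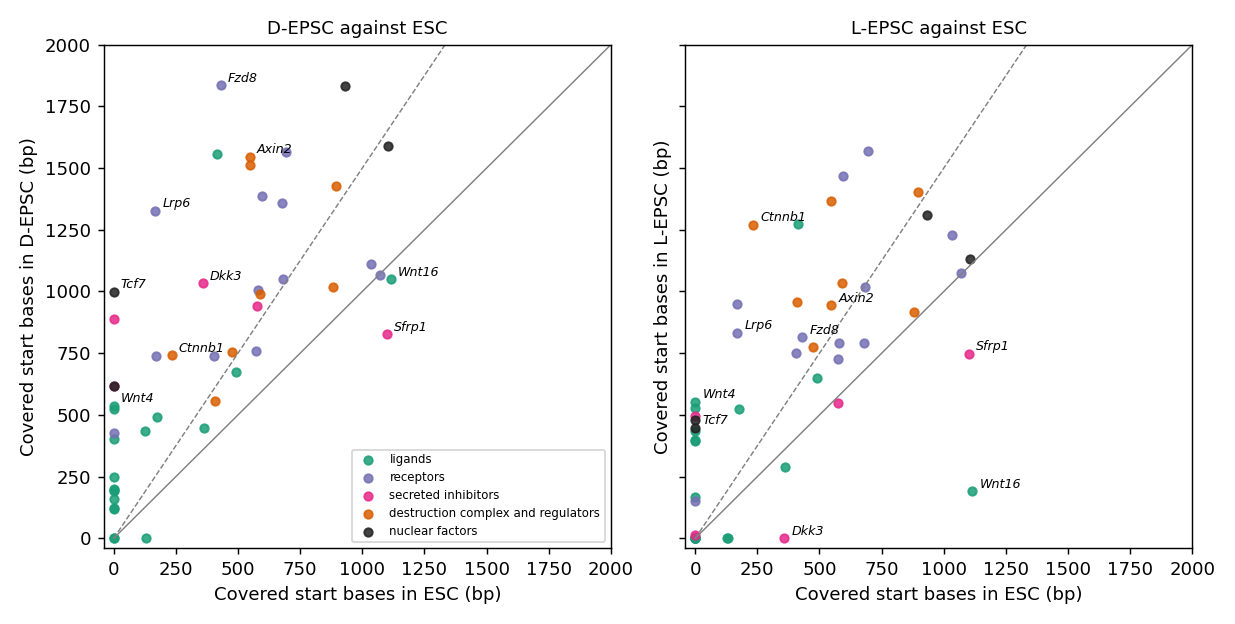
Each point is a member, coloured by role, placed by the covered bases (bp) of its start windows in ESC (horizontal) and in D-EPSC (left) or L-EPSC (right) (vertical); the solid line marks equal values and the dashed line 1.5 times the ESC value. Most points lie above the solid line, the points on the left edge have no ESC start peak, and Wnt16 lies far below the line in L-EPSC only.

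Beyond the starts, peaks were counted in the gene body, when their midpoint lay in the gene and they touched no start window. In ESCs 17 of the 49 members had a body peak (34.7%, against 22.4% of all coding genes), in D-EPSCs 32 (65.3% against 33.8%) and in L-EPSCs 26 (53.1% against 32.5%). The members are long genes, with a median length of 30809 bp against 15427 bp, so the density was compared too. It was 1.1 body peaks per 100 kb in ESCs and 3.53 and 2.96 in D- and L-EPSCs, against 0.88, 1.81 and 1.69 over all coding genes. From 25 body peaks in ESCs the number went to 80 in D-EPSCs and 67 in L-EPSCs, 3.2 and 2.68 times as many, while all coding genes gave 2.07 and 1.93 times. Without Tcf7l1, which held the most, these ratios were 3.1 and 2.38. The counts of members rested largely on narrow peaks, as the widest 28965 peaks of each list gave 17 members in ESCs against 17 in D-EPSCs and 15 in L-EPSCs. The shares were 34.7%, 34.7% and 30.6%, against 22.4%, 20.9% and 21.5% of all coding genes. This setting shortened the EPSC lists alone. With the widest 50% of every list, 7, 16 and 11 members had a body peak, or 14.3%, 32.7% and 22.4%, against 10.4%, 17.7% and 17% of all coding genes, so how far the states differed turned on how the lists were shortened.

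After merging the lists, the members had 110 body regions, 91 with the midpoint in an intron and 19 in an exon. Regions with peaks in both EPSC lists and not in ESCs numbered 30 (27.3%, against 19.2% of all body regions), those in D-EPSCs alone 34 (30.9% against 26.7%), those in L-EPSCs alone 21 (19.1% against 20.8%), those in ESCs alone 6 (5.45% against 6.16%) and those in all 3 lists 12 (10.9% against 21%). Fewer body regions of the Wnt genes than of coding genes at large were common to the 3 lists.

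Tcf7l1 held 20 of the 110 regions. Its body peaks numbered 4 in ESCs and 15 and 17 in D- and L-EPSCs, all in introns, and 9 of its regions had peaks in both EPSC lists and not in ESCs. The EPSC peaks with midpoints 152973 (D-EPSC) and 152906 bp (L-EPSC) from its start also touched the start of the coding gene Gm15401. Lef1 had 7 body regions, with 1, 6 and 2 peaks in the order ESC, D-EPSC and L-EPSC. The EPSC body peaks were thus spread along Tcf7l1 in both EPSCs and mainly D-EPSC peaks in Lef1.

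Gsk3b and Tnks had 7 body regions each and Wnt5b 6, of which a region common to the 3 lists lay at the start of Fbxl14. The Gsk3b peaks numbered 3, 2 and 4 and those of Tnks 2, 5 and 5. In Gsk3b no body region was common to all lists, nor to both EPSC lists without ESCs. Over all members, 0 of 139 start peaks and 5 of 311 peaks touched the start of another coding gene.

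**Figure D5:**
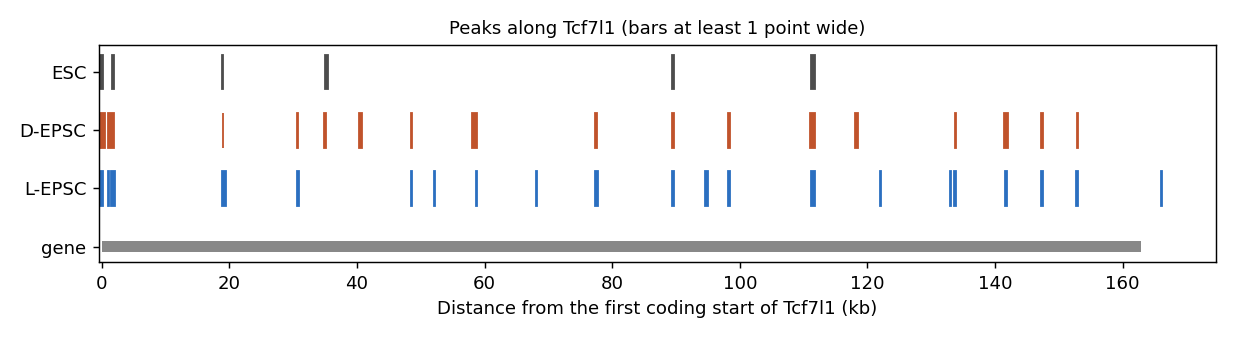
Peaks along Tcf7l1 in the ESC (grey), D-EPSC (orange) and L-EPSC (blue) lists by distance from its first coding start (kb); the grey bar below is the gene, and peaks are drawn at least 1 point wide. The ESC row has 4 marks beyond the start region, and the EPSC rows have 15 and 17 such marks within the gene, many at the same places in both.

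The TCF/LEF letters were counted in the 400 bp around the midpoint of each member peak, start and body together. They occurred in 10 of 62 peaks in ESCs (16.1%, interval 9 to 27.2), 14 of 134 in D-EPSCs (10.4%, 6.33 to 16.8) and 8 of 115 in L-EPSCs (6.96%, 3.57 to 13.1). The shares over all peaks were 11%, 10.7% and 10.5%, and each lay within the interval of the members. For start peaks alone the members had 16.2%, 11.1% and 6.25%, against 5.39%, 5.37% and 4.93% of the start peaks of all coding genes. The intervals were 7.65 to 31.1 in ESCs, 5.19 to 22.2 in D-EPSCs and 2.15 to 16.8 in L-EPSCs, and both EPSC intervals held their background. Those member shares rest on 6, 6 and 3 peaks, among them Axin2, Nkd1 and Dkk1 in ESCs. Their order turned when the whole peak was searched, with 13.5%, 22.2% and 12.5% of member start peaks against 7.63%, 10% and 8.79% of those of all coding genes. For body peaks the member shares in the 400 bp were 16%, 10% and 7.46%, against 14.3%, 12.3% and 12.4% of the body peaks of all coding genes. Both EPSC shares of body peaks were thus below their background. The letters at Nkd1 (70 bp before the start), Dkk1 (55 bp after it) and Fzd10 (529 and 390 bp before it) lay in the peaks of all 3 lists.

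Another 40 genes of the pathway, taken as a list, were read in the same way. Of these, 28 had a start peak in ESCs and 37 in each EPSC list (70%, 92.5% and 92.5%, against 51.5%, 63.4% and 60.8% of all coding genes). The 9 with one in both EPSC lists and not in ESCs (22.5%) included the R-spondins Rspo1 and Rspo4 and the inhibitors Sfrp4, Sfrp5 and Notum. The others were the receptor Ryk, Apc2, the casein kinase gene Csnk1e, and Bcl9l, a β-catenin co-activator. Dkk4, Kremen2 and Tle2 had none in any list. The share of 22.5% stands beside 22.4% in the 49 members and 9.16% of all coding genes.

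Markers of the cell type were read as a check. Of 8 pluripotent cell markers, 5 had a start peak in ESCs and 7 in each EPSC list. These were 62.5% and, in each EPSC list, 87.5%, beside the 51.5%, 63.4% and 60.8% of all coding genes. Nanog and Esrrb had none in the ESC list and had one in both EPSC lists (25%, against 9.16% of all coding genes). The nearest ESC peak lay 4259 bp from the Nanog start, and that of Esrrb lay 1021 bp from a start, just outside the window. Of 10 fibroblast markers, 2 had a start peak in ESCs, compared with 5 in D-EPSCs and 2 in L-EPSCs (20%, 50% and 20%), and Col3a1, Prrx1, Lum, Dcn and Postn had none in any list. Col1a1 and Twist1 had one in both EPSC lists and not in ESCs (20%, against 9.16% of all coding genes). The part of other cell types in the peaks of the 49 members was not tested.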

How the data were processed

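ATAC-seq libraries of J1 ESCs, D-EPSCs and L-EPSCs, with 2 technical replicates each, were sequenced as paired ends. Per the study's methods the authors aligned reads to mm9 with Bowtie2 2.3.5, kept well-mapped proper pairs (SAMtools 1.10) and ran MACS at its defaults to find peaks. How replicates were combined, and whether duplicates, the transposase offset or blacklisted regions were handled, is not given in the sources used here. An offset would shift edges by some bases, and duplicates or depth alter which weak peaks are called. The deposited lists hold 4 columns (chromosome, start, end, name) and no score, so the depth is unknown. Starts were read as counted from 0 and are printed counted from 1. Of the rows, 6 on chromosomes other than the autosomes, X and Y were left out.

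Genes and sequence came from GENCODE M1 on NCBIM37, the same assembly as mm9. Every peak end lay within its chromosomes. Peaks were assigned to starts (1000 bp on either side), bodies and motif windows as defined beside each result. No model was fitted, and shares are given with 95% Wilson intervals. The genes named were every member by role, those whose start peaks differed between ESCs and both EPSCs, the nuclear factors, the destruction complex, the 5 with the most body regions and the 5 most extreme folds of each comparison. The members and lists were chosen with earlier results of these data known. Alternatives changed the window, the starts, the overlap, the list length, the fold and the motif. The analysis used Python 3.11.15, numpy 2.4.6, scipy 1.17.1, pysam 0.24.0 and matplotlib 3.10.9, was tested on simulated data and was checked against bedtools 2.31.1.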

Additional observations from a re-analysis of the deposited data

How the results depend on the processing

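With 1 list per state, no replicate could be left out. No paired analysis was possible because the replicates of a state stand in a single list. Of 67 alternative values, 53 stayed within 1.5 times the reported count or inside the interval of the reported share, and 14 moved. With the widest 28965 peaks of each list, members with a start peak in both EPSC lists and not in ESCs fell from 11 to 5. The share of all coding genes fell from 9.16% to 6.07%. Members with a body peak fell from 32 to 17 in D-EPSCs and from 26 to 15 in L-EPSCs (20.9% and 21.5% of all coding genes). With the widest 50% of each list, members with a body peak numbered 7 in ESCs against 16 in D-EPSCs and 11 in L-EPSCs, with 10.4%, 17.7% and 17% of all coding genes. These settings remove narrow peaks by construction. The count of members in ESCs and in neither EPSC list was 0 with a window of 500 bp, 0 with 2500 bp and 0 when the peak midpoint had to lie in the window, in place of 1. A fold of 2 in place of 1.5 gave 13 members for D-EPSCs (41.9% against 23.3% of all coding genes) and 9 for L-EPSCs (31% against 19.2%). An 8-letter motif (CTTTGATC or CTTTGATG) was found in 6.45% of member peaks in ESCs and in 3.73% and 1.74% in D- and L-EPSCs, against 2.58%, 2.45% and 2.33% of all peaks. The setting with the first coding start alone was chosen after the data were seen and moved no count by over 1.5 times. The lists give calls without depth, so a state difference in presence cannot be told apart from a difference in depth, and no value covers the spread between libraries.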

Other observations

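Genes known as targets of β-catenin and TCF/LEF factors in other tissues, none of them among the 49, were read in the same 3 lists. Of 11 such genes, 3 had a start peak in ESCs (27.3%), while 9 had one in D-EPSCs (81.8%) and 7 in L-EPSCs (63.6%), against 51.5%, 63.4% and 60.8% of all coding genes. A start peak in both EPSC lists and not in ESCs was found for 5 (45.5%, against 9.16%), namely Cdx1 and Cdx2, homeobox genes of the posterior embryo, the transcription factor genes Sp8 and Ascl2, and Ccnd1, which encodes a cyclin. Cdx2 had 667 covered start bases in D-EPSCs and 653 in L-EPSCs, Cdx1 336 and 500, Ascl2 312 and 589, Sp8 270 and 359, and Ccnd1 499 and 218. All 5 also had an ESC peak a little farther out, 1121 bp from a start at Cdx1, 1303 bp at Ascl2, 1571 bp at Ccnd1, 2132 bp at Cdx2 and 2511 bp at Sp8. With a start window of 2500 bp, chosen for this list after the data were seen, Sp8 alone had a peak in both EPSC lists and not in ESCs (9.09%, against 9.07% of all coding genes), and 7 of the 11 genes had a start peak in ESCs (63.6%, against 54.4%). The share of 45.5% thus rests on the 1000 bp window. Cdx4 and Fgf8 had narrow start peaks of 154 and 136 bases in D-EPSCs alone. Myc had 452 bases in ESCs and 1454 and 1148 in D- and L-EPSCs, and Mixl1 had 504, 817 and 429. T, the primitive streak gene Brachyury, had no start peak in any list, and Sp5 had 168 bases in ESCs and none in the EPSC lists, whose nearest peaks lay 1020 bp (D-EPSC) and 1396 bp (L-EPSC) from a start. The list is short and was chosen with results of these data known, so its shares are a description.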
